A study of Caenorhabditis elegans with 13 samples.

Results

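The genes described here are the C-type lectin genes of *C. elegans*, taken as every gene whose public name begins with *clec-*. The expression table held 265 of them among 46170 genes, and 239 were annotated as protein-coding and 25 as pseudogenes. One member, *clec-81*, was not found in the annotation used and has no position here. Expression was measured by mRNA-seq, with non-stranded libraries, in 13 libraries of whole L1 hermaphrodite larvae, 3 hours after feeding began. They came from wild type (N2) worms given *dpy-27(RNAi)* (4 libraries), from strain RB2301 with *cec-4(ok3124)* on chromosome IV (3), from the double mutant strain EKM99 with *met-2(n4256)* and *set-25(n5021)* on chromosome III (3) and, as the control of all 3 comparisons, from N2 worms (3). Both mutant strains and the control worms were fed bacteria with the empty RNAi vector. The study compared these groups to ask how dosage compensation and the H3K9 methylation and anchoring pathway affect gene expression. The chromodomain protein CEC-4 binds methylated H3K9 at the nuclear periphery, the enzymes MET-2 and SET-25 place methyl groups on H3K9, and DPY-27 belongs to the dosage compensation complex, which lowers expression of the X chromosomes in hermaphrodites.

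C-type lectin domains are compact protein folds, and many vertebrate members bind sugars with the help of calcium. Nematodes carry a large family of proteins with such a domain, most of them of unknown ligand. Many are predicted to be secreted, a number are made in the intestine, and many are known for changing their mRNA level when worms meet bacterial pathogens.

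All values are the mean FPKM (fragments scaled by transcript length and by library size) of a group, as averaged by the authors. Values per library were not used here, so no mean carries an SD, no difference was tested, and whether 1 library or all libraries of a group carry a high mean cannot be read from the numbers. The depth behind a value is unknown for the same reason. Ratios are log2((FPKM + 0.1)/(control FPKM + 0.1)), which understates the change of genes at low levels. In these whole larvae, fewer cells of a type and less RNA per cell cannot be told apart.

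The targeted genes were looked at first. *cec-4* had 7.02 FPKM in *cec-4* mutants, against 18.2 in control worms (log2 ratio -1.36), and *set-25* had 4.15 FPKM in *met-2 set-25* mutants, against 8.93 in control worms (-1.09). *met-2* had 13.7 FPKM in *met-2 set-25* mutants and 17.6 in control worms. *dpy-27* mRNA had 31.6 FPKM in worms labelled *dpy-27(RNAi)* and 32.3 in control worms, and its mRNA level therefore does not check that label. The mRNA level is not a measure of the protein, which the study followed by western blot. All 8 intestinal markers were above 1 FPKM, and none of 8 yolk and sperm protein genes of adults was. The summed FPKM of the body wall muscle markers was 1928 in *dpy-27(RNAi)* worms, 2459 in *cec-4* mutants, 2408 in *met-2 set-25* mutants and 1620 in control worms. That of the pharyngeal markers was 1074, 1074 and 1107 in the same 3 groups, and 712 in control worms. Those of the neuronal markers were 925, 1131 and 882, and 780 in control worms, and those of the hypodermal markers 177.1, 207 and 231, and 209 in control worms. With 0.1 FPKM added, no marker was 2-fold from control. The hypodermal marker *dpy-7*, at a low level, came nearest, with 0.576 FPKM in *dpy-27(RNAi)* worms and 1.25 in control worms (-0.996). Without the added 0.1 FPKM it was past 2-fold there. The part of tissue makeup in the results was not tested.

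About 4 in 10 members were above 1 FPKM in at least 1 group of these larvae, 104 of 265 (39.2%), and 81 (30.6%) were above it in all 4 groups. The counts per group were 91 in *dpy-27(RNAi)* worms, 91 in *cec-4* mutants, 92 in *met-2 set-25* mutants and 93 in control worms. Of the other members, 28 (10.6%) were listed at 0 in all 4 groups and 133 (50.2%) lay above 0 without passing 1 FPKM. The highest group mean lay between 1 and 10 FPKM for 56 members (21.1%), between 10 and 100 for 42 (15.8%) and above 100 for 6 (2.26%). Of all genes in the table, of every type, 18221 of 46170 (39.5%) were above 1 FPKM in any group, a share close to that of the members. The shares of all genes above it in all 4 groups, or in each group, were not worked out. Among protein-coding genes, 101 of 239 members (42.3%) were above 1 FPKM in any group, against 13816 of 19617 (70.4%) of all protein-coding genes in the table. The pseudogenes above it were *clec-77* and *clec-30*, 2 of 25 (8.0%). Around the threshold, *clec-140*, *clec-47* and *clec-27* lay just above it, with 1.24, 1.24 and 1.13 FPKM in their highest groups, and *clec-174*, *clec-261* and *clec-145* lay just below, with 0.989, 0.919 and 0.860 FPKM.

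A few genes carried most of the family's signal. The summed FPKM of all members was 2760 in *dpy-27(RNAi)* worms, 3384 in *cec-4* mutants, 2590 in *met-2 set-25* mutants and 3124 in control worms. *clec-63* and *clec-50* made up 35.3% of it in *dpy-27(RNAi)* worms, 40.7% in *cec-4* mutants, 37.2% in *met-2 set-25* mutants and 38.9% in control worms. The 10 genes with the highest means made up between 60.4% and 64.0% in every group. The median of the 104 members above 1 FPKM was 7.06 FPKM in *dpy-27(RNAi)* worms, 6.85 in *cec-4* mutants, 4.21 in *met-2 set-25* mutants and 7.04 in control worms. The corresponding median of protein-coding genes was 15.3, 15.8 and 15.1 FPKM in those 3 groups and 14.8 FPKM in control worms.

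*clec-63* (chromosome II, 12895638 to 12897446, plus strand, WBcel235) had the highest level in every group. Its mean was 640 FPKM in *dpy-27(RNAi)* worms, 935 in *cec-4* mutants, 670 in *met-2 set-25* mutants and 654 in control worms, so the *cec-4* mean stood above the others, which were close together. *clec-50* (V, 19752399 to 19755368) had 335 FPKM in *dpy-27(RNAi)* worms, 441 in *cec-4* mutants, 292 in *met-2 set-25* mutants and 560 in control worms. The control mean of *clec-50* was the highest, and the *met-2 set-25* mean was 0.94 below it on the log2 scale. *clec-52* (IV, 8167164 to 8168760) had 159 FPKM in *dpy-27(RNAi)* worms, 128 in *cec-4* mutants, 196 in *met-2 set-25* mutants and 128 in control worms, so its *met-2 set-25* mean was the highest, where that of *clec-50* was the lowest. The next genes by mean were *clec-84*, *clec-265*, *clec-65*, *clec-150*, *clec-83*, *clec-48* and *clec-173*. Their group means ran from 44.4 FPKM for *clec-173* in *met-2 set-25* mutants to 145 FPKM for *clec-84* in control worms, and for none of these 7 was any group 2-fold from control. The plot of the 30 highest members shows that groups differed less than genes did.

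**Figure D1:**
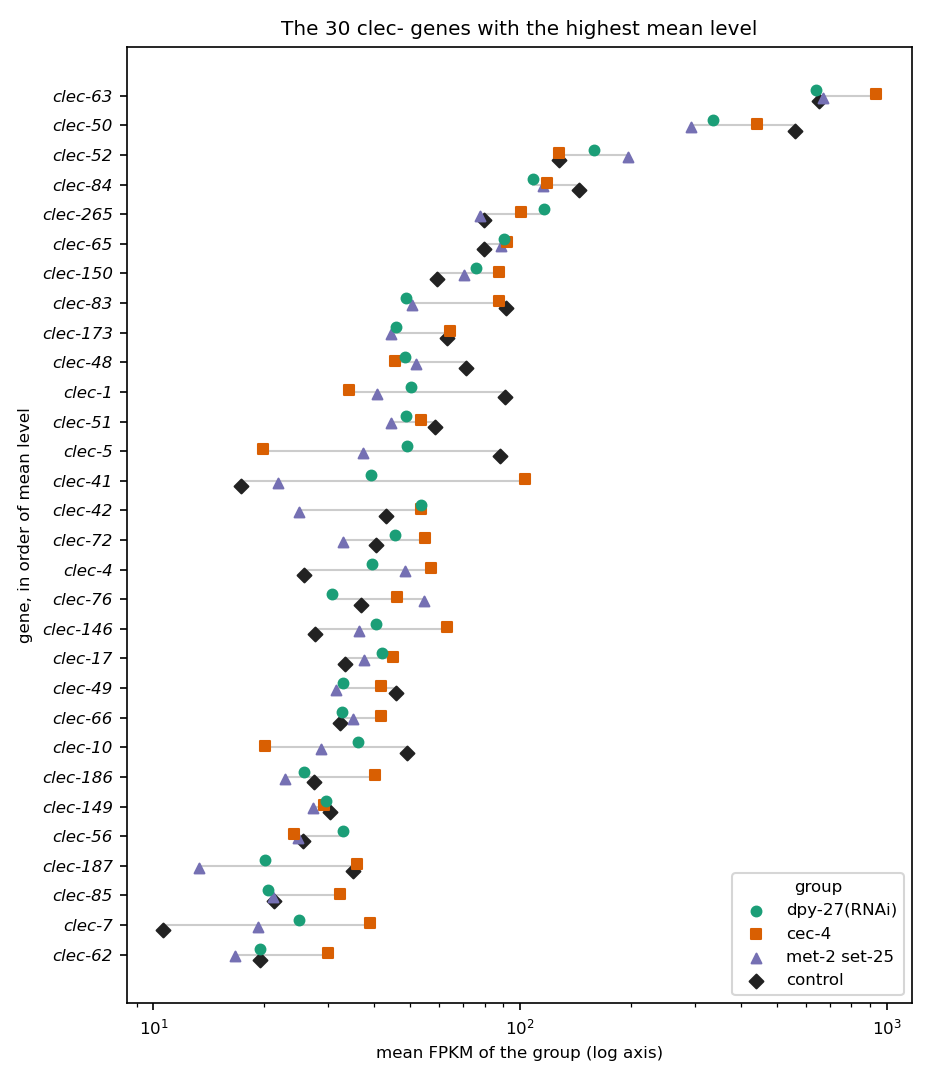
Mean FPKM of each group (horizontal log axis) for the 30 *clec-* genes with the highest mean over the 4 groups, 1 gene per row and 1 marker per group. The *clec-63* means lie between 640 and 935 FPKM, above every other gene, while *clec-41* has its *cec-4* marker at 103 FPKM and its control marker at 17.3 FPKM.

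The members were spread unevenly over the chromosomes. Chromosome V held 96 of them, IV held 58, II held 51, I held 38, III held 18 and X held 3. The chromosomes also differ in gene number. Protein-coding members made up 1.72% of all protein-coding genes on V, 1.64% on IV, 1.42% on II and 1.28% on I. On III they made up 0.542%, and on X 0.113%. The share above 1 FPKM in any group was 30 of 58 on IV (51.7%), 39 of 96 on V (40.6%), 18 of 51 on II (35.3%), 9 of 38 on I (23.7%) and 4 of 18 on III (22.2%). On each of these chromosomes it was lower than the share of all protein-coding genes there, which ran between 59.2% on V and 83.2% on III, although the members counted here include the pseudogenes. All 3 X-linked members were above 1 FPKM in any group, where 78.4% of all protein-coding genes on X were.

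**Figure D2:**
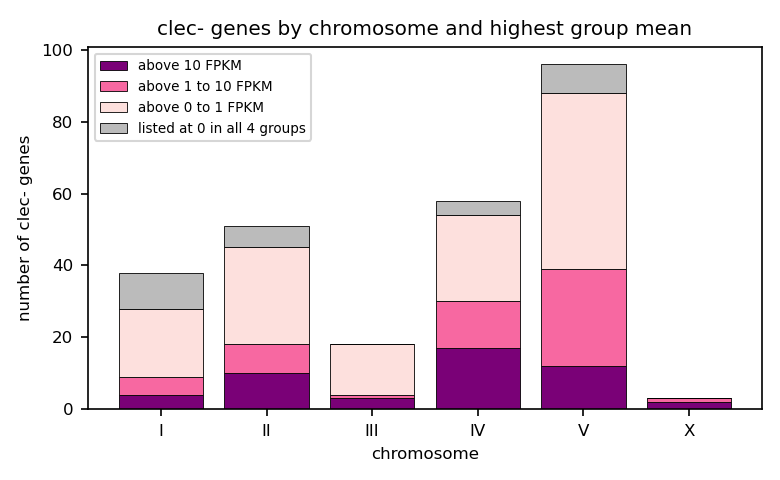
Number of *clec-* genes on each chromosome (vertical axis), with each bar split by the gene's highest group mean in FPKM. Chromosome V has the tallest bar, with 96 genes, and chromosome IV has the most genes above 10 FPKM, 17 of 58.

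Among the members on the X chromosome, where the dosage compensation complex acts, *clec-265* (X, 3031783 to 3033117) had 116 FPKM in *dpy-27(RNAi)* worms, 101 in *cec-4* mutants, 77.5 in *met-2 set-25* mutants and 79.6 in control worms. *clec-86* (X, 7139875 to 7140566) had 9.48 FPKM in *dpy-27(RNAi)* worms, 12.9 in *cec-4* mutants, 5.5 in *met-2 set-25* mutants and 14.2 in control worms. *clec-266* (X, 6617393 to 6622915) had 7.97 FPKM in *dpy-27(RNAi)* worms, 6.11 in *cec-4* mutants, 4.32 in *met-2 set-25* mutants and 9.98 in control worms. *clec-265* was therefore highest in the group labelled *dpy-27(RNAi)*, with a log2 ratio of 0.54, while *clec-86* and *clec-266* were highest in control worms and more than 2-fold lower in *met-2 set-25* mutants (-1.35 and -1.19). Of their exon bases, 10.5% in *clec-86* and 12.2% in *clec-266* were shared with genes on the opposite strand, *alh-10* and *kqt-1*, and these libraries cannot separate the strands.

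Members with a known role in *C. elegans*, most of them in defence against bacteria, had group means between 0.0961 and 57.0 FPKM, and none was among the 10 highest means. *clec-49*, which is needed for resistance to *Serratia marcescens*, had 32.8 FPKM in *dpy-27(RNAi)* worms, 41.8 in *cec-4* mutants, 31.4 in *met-2 set-25* mutants and 45.7 in control worms. *clec-39*, with the same known role, stayed below 1 FPKM in every group, between 0.218 in *met-2 set-25* mutants and 0.449 in control worms. *clec-67* and *clec-85* are targets of the p38 kinase PMK-1. *clec-67* had 17.1 FPKM in *dpy-27(RNAi)* worms, 19.5 in *cec-4* mutants, 13.2 in *met-2 set-25* mutants and 15.1 in control worms. *clec-85* had 20.5 FPKM in *dpy-27(RNAi)* worms, 32.2 in *cec-4* mutants, 21.2 in *met-2 set-25* mutants and 21.4 in control worms, although 27.7% of its exon bases were shared with *Y54G2A.40* on the same strand. Neither target was 2-fold from control in any group. *clec-4*, whose mutants differ from wild type in their defence against *Bacillus thuringiensis*, had 39.4 FPKM in *dpy-27(RNAi)* worms, 57.0 in *cec-4* mutants, 48.7 in *met-2 set-25* mutants and 25.7 in control worms. Its mean was above control in all 3 groups and past 2-fold in *cec-4* mutants alone (log2 ratio 1.15, with 0.62 in *dpy-27(RNAi)* worms and 0.92 in *met-2 set-25* mutants). *clec-70*, known to be induced by *Staphylococcus aureus*, reached no more than 0.452 FPKM in any group. *clec-38*, a transmembrane protein that opposes netrin-guided axon growth, reached no more than 0.654 FPKM.

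For the comparisons with control, genes were kept where the mean of the 2 groups compared was above 1 FPKM, and a gene was counted as higher or lower where its ratio was at least 2-fold. A gene close to 1 FPKM could pass through its higher group alone, and such a gene had to differ, so counts are also given for genes above 1 FPKM in both groups. All 3 comparisons share the same control means, so a high or low control value appears in each of them. Of the 101 members kept in at least 1 comparison, 35 (34.7%) passed 2-fold in at least 1, where 29.2% of the 17112 genes so kept did.

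In *met-2 set-25*, more members were lower than higher. Of 94 members kept, 19 (20.2%) were at least 2-fold lower than in control, where 7.58% of the 16099 genes kept were, and 4 (4.26%) were at least 2-fold higher, where 11.7% of all genes were. The median log2 ratio of the members was -0.31, against 0.07 for all genes, and 66.0% of members had a ratio below 0, against 45.4% of all genes. Among the 85 members above 1 FPKM in both groups, 15 (17.6%) were lower, where 5.17% of all such genes were, and 1 (1.18%) was higher, where 7.85% were. With every group scaled to 1 summed FPKM the median of all genes became 0.26, that of the members -0.12, and the members 2-fold lower became 12 (12.8%), where 5.8% of all genes were. The 8 intestinal markers summed to 7641 FPKM in *met-2 set-25* mutants and 9469 in control worms (7954 in *dpy-27(RNAi)* worms and 9522 in *cec-4* mutants). Their median ratio was -0.24 in *met-2 set-25* mutants, -0.25 in *cec-4* mutants and -0.24 in *dpy-27(RNAi)* worms. None of these markers was 2-fold from control. In *met-2 set-25* mutants, *act-5*, an intestinal actin, had the lowest ratio of them (-0.93), followed by *pept-1* (-0.65). The part of the intestinal share of RNA in the members' ratios was not tested.

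**Figure D3:**
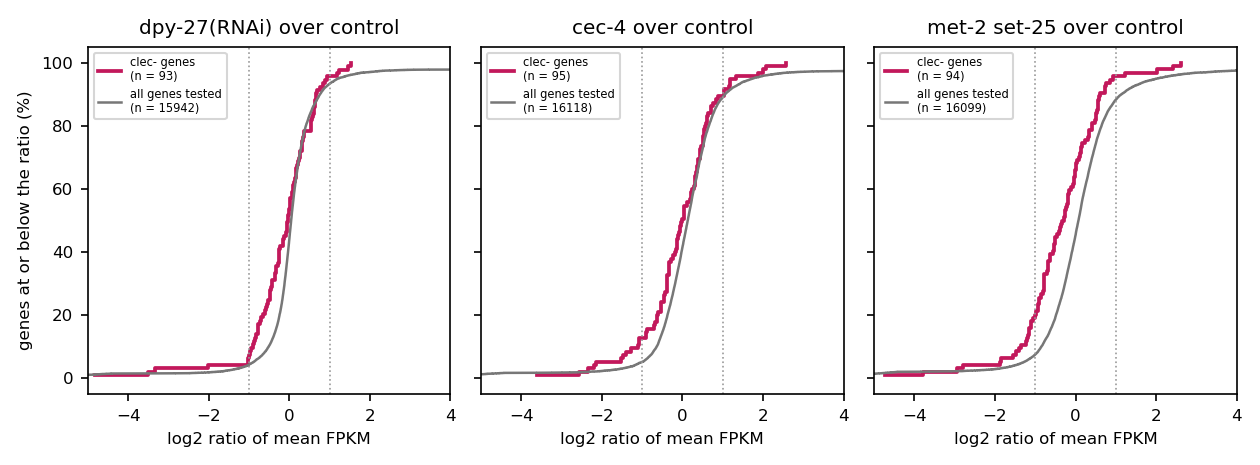
Cumulative share of genes (vertical axis, %) at or below each log2 ratio of mean FPKM (horizontal axis) in the 3 comparisons, for *clec-* genes and for all genes kept, with dotted lines at 2-fold in each direction. In *met-2 set-25* the curve of the *clec-* genes lies left of the curve of all genes, with medians of -0.31 and 0.07.

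The members lower in *met-2 set-25* mutants included genes of medium level. *clec-80* (IV, 2823746 to 2828069) had 7.18 FPKM in *met-2 set-25* mutants, against 26.7 in control worms (-1.88), with 17.7 in *dpy-27(RNAi)* worms and 21.2 in *cec-4* mutants. *clec-187* had 13.3 FPKM in *met-2 set-25* mutants, against 35.0 in control worms (-1.39), and *clec-172* had 3.97, against 14.5 (-1.85). *clec-1* had 40.7 FPKM in *met-2 set-25* mutants, against 91.1 in control worms (-1.16), and *clec-5* had 37.3, against 87.9 (-1.23). These 2 genes were lower still in *cec-4* mutants, with 34.1 FPKM for *clec-1* (-1.41) and 19.9 FPKM for *clec-5* (-2.14). The rest of the 19, leaving aside the 4 genes described further on, were *clec-55*, *clec-45*, *clec-86*, *clec-53*, *clec-266*, *clec-170*, *clec-43*, *clec-199*, *clec-197* and *clec-165*.

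The 4 members higher in *met-2 set-25* mutants were at low levels. *clec-126* (II, 3519494 to 3520712) had 4.75 FPKM in *met-2 set-25* mutants and 0.695 in control worms (2.61), with 0.331 in *dpy-27(RNAi)* worms and 0.502 in *cec-4* mutants. *clec-73* (IV, 3954030 to 3956195) had 1.97 FPKM in *met-2 set-25* mutants and 0.289 in control worms (2.41), with 0.432 in *dpy-27(RNAi)* worms and 0.182 in *cec-4* mutants. Its neighbour *clec-74* (IV, 3957005 to 3960185) had 1.69 FPKM in *met-2 set-25* mutants and 0.342 in control worms (2.02), with 0.602 in *dpy-27(RNAi)* worms and 0.137 in *cec-4* mutants. These 3 genes were above 1 FPKM in *met-2 set-25* mutants alone, and so passed the filter only through the group in which they were high. The fourth gene, *clec-89*, had 3.99 FPKM in *met-2 set-25* mutants and 1.65 in control worms (1.23).

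In *cec-4*, members passed 2-fold in both directions. Of 95 members kept, 10 (10.5%) were at least 2-fold higher, where 10.9% of the 16118 genes kept were, so the higher share was close to that of all genes. At least 2-fold lower were 12 (12.6%), where 5.21% of all genes were. The median log2 ratio was -0.0016 for the members and 0.13 for all genes, and the sign of the members' median depends on the scaling (0.12 with every group scaled to 1 summed FPKM, -0.13 after subtracting the median of all genes). The difference from all genes also changed sign with the filter, since members averaging above 5 FPKM had a median of 0.21 and all such genes one of 0.07. Among the 88 members above 1 FPKM in both groups, 10 (11.4%) were higher, where 7.34% of all such genes were, and 9 (10.2%) were lower, where 3.21% were.

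The 4 members with the highest ratios in *cec-4* mutants were also the 4 with the highest ratios in *dpy-27(RNAi)* worms, and both comparisons use the same control means. *clec-41* (V, 13134903 to 13138101) had 39.3 FPKM in *dpy-27(RNAi)* worms, 103 in *cec-4* mutants, 21.9 in *met-2 set-25* mutants and 17.3 in control worms, with log2 ratios of 1.18 in *dpy-27(RNAi)* worms, 2.57 in *cec-4* mutants and 0.33 in *met-2 set-25* mutants. *clec-7* (V, 7328392 to 7330002) had 24.9 FPKM in *dpy-27(RNAi)* worms, 39 in *cec-4* mutants, 19.3 in *met-2 set-25* mutants and 10.6 in control worms. *clec-139* (II, 4619988 to 4621750) had 7.15 FPKM in *dpy-27(RNAi)* worms, 10.6 in *cec-4* mutants, 4.09 in *met-2 set-25* mutants and 2.42 in control worms. *clec-89* (I, 4071664 to 4073128) had 4.70 FPKM in *dpy-27(RNAi)* worms, 6.95 in *cec-4* mutants, 3.99 in *met-2 set-25* mutants and 1.65 in control worms. In each of these 4 genes the order was *cec-4*, *dpy-27(RNAi)*, *met-2 set-25* and control, from high to low. The other members higher in *cec-4* mutants were *clec-71*, *clec-146*, *clec-12*, *clec-4*, *clec-264* and *clec-43*, with log2 ratios between 1.02 and 1.33. *clec-43* stood on opposite sides of control, with 7.29 FPKM in *cec-4* mutants (1.02), 1.59 in *met-2 set-25* mutants (-1.10) and 3.54 in control worms.

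Of the members lower in *cec-4* mutants, *clec-1* and *clec-5* had the highest control levels. *clec-45* had 0.621 FPKM in *cec-4* mutants and 3.54 in control worms (-2.33), with 3.51 in *dpy-27(RNAi)* worms and 1.21 in *met-2 set-25* mutants. It therefore passed the filter in the *cec-4* comparison only through control. *clec-10* had 20.1 FPKM in *cec-4* mutants and 49 in control worms (-1.28). *clec-227* had 3.06 FPKM in *cec-4* mutants and 8.93 in control worms (-1.52), and *clec-170* had 5.95, against 16.7 (-1.47).

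In worms labelled *dpy-27(RNAi)*, members and all genes alike passed 2-fold in a smaller share than in the other comparisons, counting both directions. Of 93 members kept, 4 (4.30%) were at least 2-fold higher, where 6.67% of the 15942 genes kept were, and 7 (7.53%) were at least 2-fold lower, where 4.34% of all genes were. The median log2 ratio was -0.03 for the members and 0.04 for all genes. Among the 86 members above 1 FPKM in both groups, 4 (4.65%) were higher, where 3.74% of all such genes were, and 6 (6.98%) were lower, where 2.42% were. The 4 higher genes were *clec-41*, *clec-7*, *clec-89* and *clec-139*. Lower were *clec-61*, *clec-82*, *clec-60* and *clec-81*, and, close to the 2-fold line, *clec-172* (-1.03), *clec-28* (-1.02) and *clec-33* (-1.01).

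In 4 genes the ratio, with 0.1 FPKM added, was at least 2-fold below control in all 3 comparisons. The share of all genes lower in all 3 was not worked out, so this count cannot be set against all genes. The 3 ratios of a gene also share the same control mean, so a high control value lowers each of them. *clec-60* (II, 10480043 to 10481874, minus strand), known to be induced in worms infected with *S. aureus*, had 1.39 FPKM in *dpy-27(RNAi)* worms, 3.18 in *cec-4* mutants, 0.994 in *met-2 set-25* mutants and 15.1 in control worms. *clec-61* (II, 10488730 to 10490537, minus strand), its neighbour, had 0.0871 FPKM in *dpy-27(RNAi)* worms, 0.787 in *cec-4* mutants, 0.0981 in *met-2 set-25* mutants and 5.2 in control worms. *clec-82* (IV, 2835664 to 2838723) had 1.43 FPKM in *dpy-27(RNAi)* worms, 1.34 in *cec-4* mutants, 2.44 in *met-2 set-25* mutants and 17.4 in control worms. *clec-81* had 2.02 FPKM in *dpy-27(RNAi)* worms, 3.94 in *cec-4* mutants, 1.01 in *met-2 set-25* mutants and 8.47 in control worms. Their log2 ratios lay between -1.09 for *clec-81* in *cec-4* mutants and -4.82 for *clec-61* in *dpy-27(RNAi)* worms. *clec-61* was above 1 FPKM in control worms alone, and so passed the filter only through the group in which it was high. The same holds for *clec-60* in the comparison of *met-2 set-25* mutants, where it had 0.994 FPKM. Since these 4 genes are counted as lower in each comparison, they made up 4 of the 7 lower members in *dpy-27(RNAi)* worms, 4 of the 12 in *cec-4* mutants and 4 of the 19 in *met-2 set-25* mutants. Without the added 0.1 FPKM, *clec-33* and *clec-55*, also kept in all 3 comparisons, were at least 2-fold below control in every group too.

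**Figure D4:**
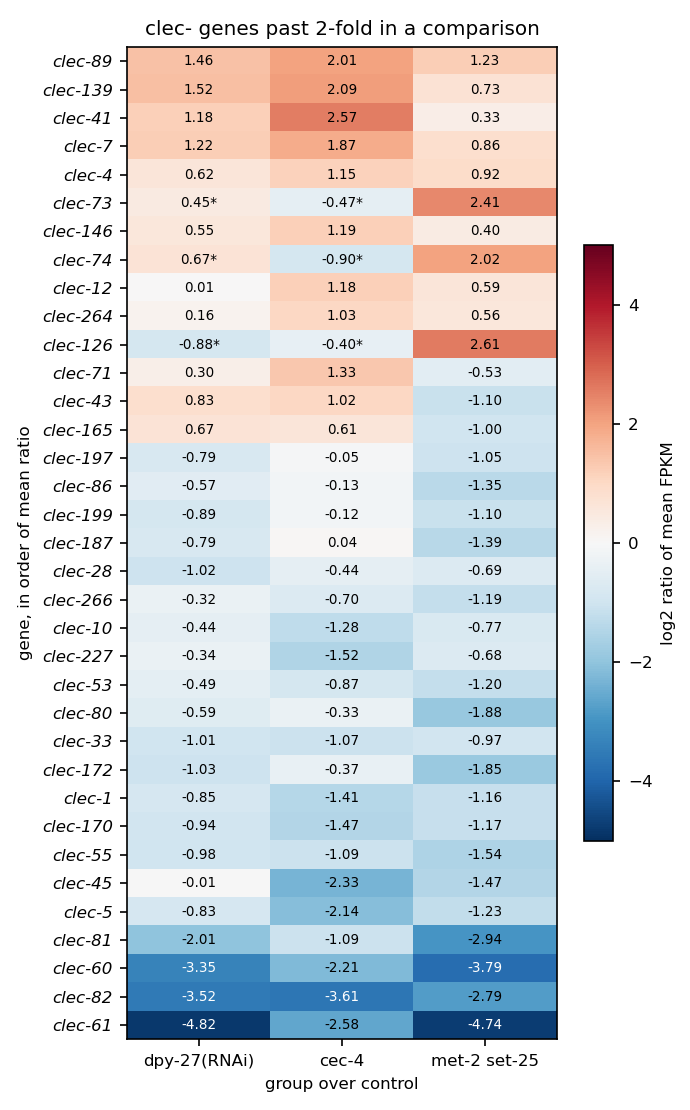
Log2 ratio of mean FPKM over control (color and printed value) for the 35 *clec-* genes at least 2-fold from control in at least 1 comparison, 1 gene per row and 1 comparison per column, where an asterisk marks a comparison in which the gene did not pass the filter on low values. *clec-81*, *clec-60*, *clec-82* and *clec-61* at the bottom are below -1 in all 3 columns, and *clec-126*, *clec-73* and *clec-74* are above 2 in *met-2 set-25* mutants alone.

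The order of the groups was read for the 94 members with a mean of the 4 groups above 1 FPKM. The highest group was *dpy-27(RNAi)* for 18 members (19.1%, against 17.2% of all 16438 such genes), *cec-4* for 32 (34.0%, against 32.4%), *met-2 set-25* for 7 (7.45%, against 26.3%) and control for 37 (39.4%, against 24.1%). The lowest group was *dpy-27(RNAi)* for 11 members (11.7%, against 17.3%), *cec-4* for 18 (19.1%, against 19.7%), *met-2 set-25* for 42 (44.7%, against 28.2%) and control for 23 (24.5%, against 34.8%). Members thus had *met-2 set-25* as their lowest group, and control as their highest, in a larger share than all genes did.

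Many members lie side by side. With at most 10 kb between neighbouring members, 117 of the 264 placed genes fell into 22 runs of 3 or more. Of the genes in runs, 48 (41.0%) were above 1 FPKM in any group, against 55 of the 147 others (37.4%). Levels differed within and between runs. All 5 genes of the run from *clec-62* to *clec-66* (II, 12893062 to 12906644) were above 1 FPKM, with means over the 4 groups between 9.48 for *clec-64* and 725 for *clec-63*. All 5 genes of the run from *clec-57* to *clec-55* (V, 14469231 to 14482317) were above it too, with means between 1.10 for *clec-55* and 26.9 for *clec-56*. In contrast, none of the 8 genes from *clec-127* to *clec-134* (II, 3568117 to 3581475) passed 1 FPKM and 5 of them were listed at 0 in all groups, and none of the 7 from *clec-93* to *clec-99* (I, 11142110 to 11158833) did. The 4 genes from *clec-16* to *clec-14* (I, 12629309 to 12638418) were all listed at 0.

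The largest run held 15 genes on chromosome V (16839121 to 16869840), and 12 of them were above 1 FPKM in any group, all at low levels. *clec-37* had the highest mean of the run, with 7.25 FPKM in *dpy-27(RNAi)* worms, 5.92 in *cec-4* mutants, 4.56 in *met-2 set-25* mutants and 4.54 in control worms. At the end of the run, *clec-28* had 2.52 FPKM in *dpy-27(RNAi)* worms, 3.82 in *cec-4* mutants, 3.2 in *met-2 set-25* mutants and 5.22 in control worms, and *clec-33* had 2.19 FPKM in *dpy-27(RNAi)* worms, 2.10 in *cec-4* mutants, 2.26 in *met-2 set-25* mutants and 4.53 in control worms. These 2 neighbours and *clec-26* (3.86 FPKM in *dpy-27(RNAi)* worms, 4.30 in *cec-4* mutants, 3.29 in *met-2 set-25* mutants and 5.46 in control worms) were highest in control. In contrast, *clec-25*, *clec-35* and *clec-31* were lowest in control, with 1.46, 1.33 and 1.2 FPKM there and between 1.75 and 2.33 FPKM in the other groups. Of the remaining genes above 1 FPKM, *clec-36* ran between 1.99 FPKM in *met-2 set-25* mutants and 2.85 in *dpy-27(RNAi)* worms, and *clec-22*, *clec-24*, *clec-27* and the pseudogene *clec-30* reached 1.13 to 1.49 FPKM in their highest groups. *clec-25* and *clec-30* overlap each other on opposite strands, over 21.4% and 20.2% of their exon bases.

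Some neighbours had similar ratios and others did not. *clec-60* and *clec-61*, next to each other on II (run from 10468202 to 10490537), were both at least 2-fold below control in all 3 comparisons, while *clec-143* in the same run had 3.42 FPKM in *dpy-27(RNAi)* worms, 3.06 in *cec-4* mutants, 3.89 in *met-2 set-25* mutants and 4.44 in control worms. In the run of 13 genes on IV (3922165 to 3975721), the low-level neighbours *clec-73* and *clec-74* were both highest in *met-2 set-25* mutants. They were above 1 FPKM in that group alone, and so passed the filter only through it. *clec-72* before them had 33.0 FPKM in *met-2 set-25* mutants and 40.4 in control worms (-0.29), and *clec-75* after them had 14.7 in *met-2 set-25* mutants and 11.6 in control worms (0.34). In the run from *clec-80* to *clec-85* (IV, 2823746 to 2855456), *clec-82* was at least 2-fold below control in all 3 comparisons, as was *clec-81*, which has no position here but whose sequence name, Y54G2A.9, shares its clone name with the genes of this run. *clec-80* was 2-fold lower in *met-2 set-25* mutants alone, as given above. *clec-83* had 48.8 FPKM in *dpy-27(RNAi)* worms, 87.3 in *cec-4* mutants, 50.8 in *met-2 set-25* mutants and 91.7 in control worms, and *clec-84* had 108 FPKM in *dpy-27(RNAi)* worms, 118.6 in *cec-4* mutants, 115.1 in *met-2 set-25* mutants and 145 in control worms. Neighbouring members can be similar in sequence, and the effect of 50-bp reads shared between them was not tested.

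**Figure D5:**
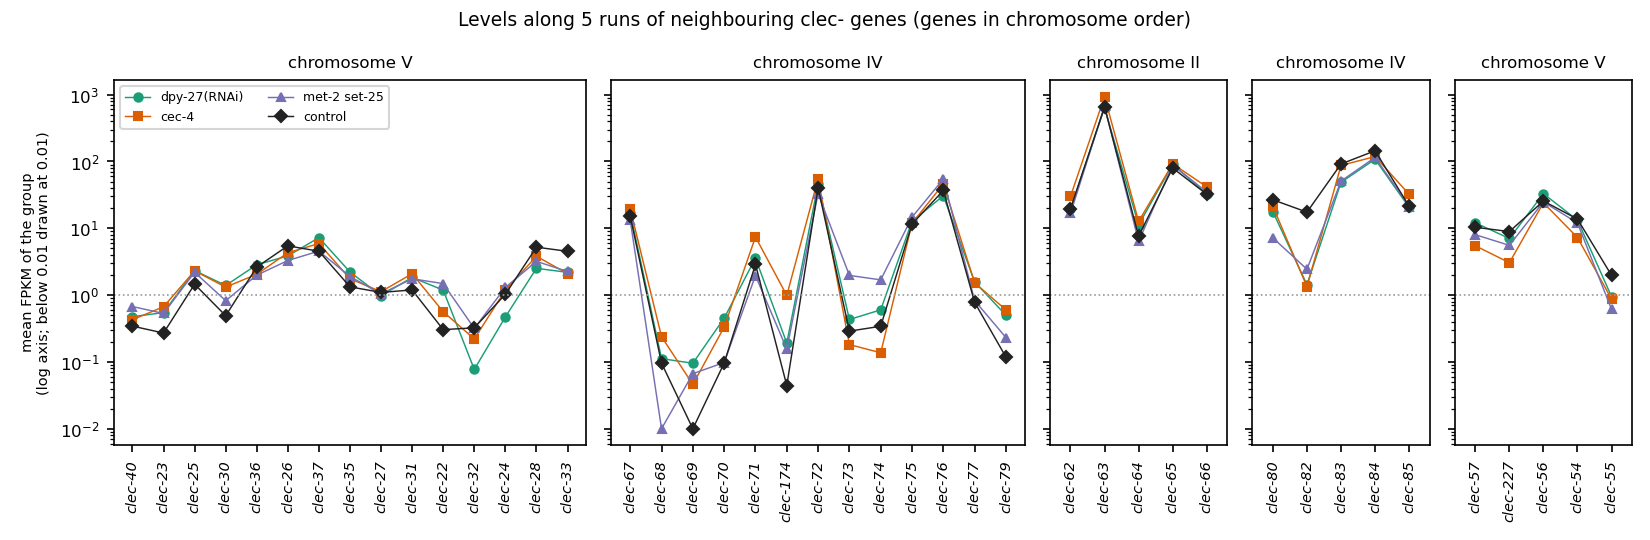
Mean FPKM of each group (vertical log axis) along 5 runs of neighbouring *clec-* genes, in chromosome order, with 1 marker per group, a dotted line at 1 FPKM and values below 0.01 drawn at 0.01. In the run on chromosome IV from *clec-80* to *clec-85*, the control marker of *clec-82* at 17.4 FPKM stands apart from the other groups at 1.34 to 2.44 FPKM, while the 4 markers of *clec-84* lie between 108 and 145 FPKM.

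Genes linked to the family by known function were set beside it. All 7 genes of the p38 pathway, which regulates several members during infection, were above 1 FPKM. The kinase gene *pmk-1* had 38.8 FPKM in *dpy-27(RNAi)* worms, 43.0 in *cec-4* mutants, 45.5 in *met-2 set-25* mutants and 36.2 in control worms. The only gene of this list past 2-fold was *vhp-1*, a phosphatase that acts against the pathway, with 239 FPKM in *met-2 set-25* mutants and 115.4 in control worms (1.05). Among the intestinal GATA factors, *elt-2*, the main regulator of intestinal genes, had 31.9 FPKM in *dpy-27(RNAi)* worms, 29.5 in *cec-4* mutants, 36.0 in *met-2 set-25* mutants and 35.5 in control worms. *elt-4* had 4.83 FPKM in *cec-4* mutants and 2.26 in control worms (1.06), and *elt-7* stayed between 14.7 and 15.7 FPKM in all groups. The galectins, a separate family of animal lectins that bind galactose-containing sugars, were all above 1 FPKM (12 of 12). Of the *clec-* genes 39.2% were, of the protein-coding *clec-* genes 42.3%, and of all protein-coding genes 70.4%. The median log2 ratio of the galectins was -0.28 in *dpy-27(RNAi)* worms, 0.23 in *cec-4* mutants and -0.24 in *met-2 set-25* mutants. At least 2-fold lower were *lec-4* (in both *dpy-27(RNAi)* worms and *met-2 set-25* mutants) and *lec-6* (in *met-2 set-25* mutants), while *lec-7* was higher in *cec-4* mutants, with 31.1 FPKM there and 10.1 in control worms (1.61).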

How the data were processed

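RNA was sequenced from whole L1 larvae by non-stranded, single-end 50-bp mRNA-seq. After trimming with Trim Galore, the authors mapped reads to WS235 in TopHat 2.0.13 with a maximum of 20 hits, and Cufflinks 2.2.1 gave FPKM per gene, sharing reads with several hits among them. For each group, the authors deposited 1 mean FPKM per gene. The authors also deposited DESeq2 1.6.3 comparisons (log2 fold changes and adjusted p-values, from HTSeq 0.6.0 counts), which were not used here. Depth per library is not given in the table used.

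Members were matched by public gene name. Of 46170 gene IDs, 45871 were found in the Ensembl release 115 annotation of WBcel235, used for position, biotype and exon overlap, and 299 were not. Values were computed with pandas 2.3.3 and numpy 2.4.6 (Python 3.11.15) and drawn with matplotlib 3.10.9, and the counting steps were tested on simulated data. Log2 ratios used a pseudocount of 0.1 FPKM, genes whose mean of the 2 groups compared was above 1 FPKM, and a 2-fold threshold. Runs are 3 or more members with at most 10 kb between neighbours.

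Named genes were the 10 highest means, the 4 highest and 4 lowest ratios per comparison, members with known roles, the 3 members on each side of 1 FPKM, X-linked members, and the largest run. Other genes are named as examples or to complete a count, and were chosen after their values were seen. The members, lists and rules were chosen with earlier results of these data known. Alternatives were other thresholds, pseudocounts, filters and scalings. Sequences were not analysed here.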

Additional observations from a re-analysis of the deposited data

How the results depend on the processing

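Of 82 alternative values, 59 stayed close to the value reported, a count within 1.5-fold and a median within 0.1, and 23 did not. At a level of 5 FPKM, 67 members counted as expressed in place of 104. Without a filter on low values, the members higher became 13 in *dpy-27(RNAi)* worms, 24 in *cec-4* mutants and 11 in *met-2 set-25* mutants, and the *met-2 set-25* median became 0.0. At 1.5-fold, members higher became 15, 19 and 11 in the same order of groups, and members lower 20, 20 and 37. With a mean of the groups compared above 5 FPKM, members higher were 2 in *dpy-27(RNAi)* worms and 0 in *met-2 set-25* mutants, members lower were 4 in *dpy-27(RNAi)* worms and 12 in *met-2 set-25* mutants, and the *cec-4* median was 0.21. With both groups above 1 FPKM, 1 member was higher in *met-2 set-25* mutants. With a pseudocount of 1 FPKM, 4 members were lower in *dpy-27(RNAi)* worms. After subtracting the median of all genes, the *cec-4* median was -0.13. For settings chosen after seeing the data, a mean of all 4 groups above 1 FPKM left 2 members higher in *met-2 set-25* mutants, and scaling to 1 summed FPKM gave medians of 0.12 in *cec-4* mutants and -0.12 in *met-2 set-25* mutants, with 12 members lower in *met-2 set-25* mutants, where 5.8% of all genes were. The *met-2 set-25* median of the members was below that of all genes in every setting with a filter. The cause of these shifts was not tested. At these other settings, the share of all genes past the fold threshold was worked out only in part. It is given for genes above 1 FPKM in both groups, and for lower genes in *met-2 set-25* mutants after scaling. The remaining counts therefore cannot be set against all genes.

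No paired analysis was possible because only group means were used, and leaving out a library was not run for the same reason. Depth and counting error are unknown for every value. Overlapping genes on either strand share reads here, and 25 of the 104 members above 1 FPKM have some exon overlap, 4 of them over more than 20% of their exon bases (*clec-85*, *clec-25*, *clec-30* and *clec-140*).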

Other observations

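Members under the filter were not counted in the comparisons. Some of them are given here as values. *clec-92* (I, 11015483 to 11017537) had 1.37 FPKM in *met-2 set-25* mutants and 0.261 in control worms, with 0.410 in *dpy-27(RNAi)* worms and 0.421 in *cec-4* mutants. *clec-22* had 1.49 FPKM in *met-2 set-25* mutants and 0.304 in control worms, with 1.19 in *dpy-27(RNAi)* worms and 0.565 in *cec-4* mutants. *clec-261* had 0.919 FPKM in *met-2 set-25* mutants and 0.242 in control worms, with 0.303 in *dpy-27(RNAi)* worms and 0.277 in *cec-4* mutants. All 3 genes were highest in *met-2 set-25* mutants, and they were picked with these values known. Of all members under the filter, 7 were at least 2-fold higher in *met-2 set-25* mutants and 4 at least 2-fold lower. The share of all genes under the filter was not worked out. *clec-174* had 0.989 FPKM in *cec-4* mutants and 0.0443 in control worms, with 0.192 in *dpy-27(RNAi)* worms and 0.156 in *met-2 set-25* mutants. These genes were chosen after their values were seen, and without values per library none of these differences was tested.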
